A study of Mus musculus with 6 samples.

Results

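Vascular leptomeningeal fibroblasts are the matrix-producing cells of the pia and arachnoid and of the sheath around larger brain vessels. They were selected on measured counts, as nuclei with at least 500 unique molecular identifiers (UMIs, counted transcript molecules), at most 5% of UMIs from mitochondrial genes and at least 1 UMI in 3 or more of the 6 genes Slc6a13, Slc47a1, Dcn, Col1a2, Ranbp3l and Lum. A nucleus with 3 or more of 6 endothelial genes (Flt1, Cldn5, Pecam1, Cdh5, Slco1a4, Abcb1a) or with more than 1 UMI of Slc17a7, a glutamate transporter of excitatory neurons, was not counted. The rule found 183 nuclei among 53294 that passed the UMI and mitochondrial filters, which is 0.343%.

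The nuclei came from frozen hippocampi of mice given as 18 to 20 months old, in 6 single-nucleus libraries. The sevoflurane group of 3 libraries was made from animals exposed to 2% sevoflurane (an inhaled anaesthetic) in 60% oxygen at 1 L/min for 6 h, and the oxygen group of 3 libraries from animals given 60% oxygen alone at that flow and for as long. Genotype and strain were not given in the sources used here, nor was the number of animals behind a library, and the p-values given here rest on library-to-library spread alone, which may be technical. Replicates 1 and 2 of both groups carry the label male and replicate 3 the label female, which the Xist and Y-linked transcripts of 3 libraries did not match. Deposited totals ran from 56334621 to 72636984 UMIs per library, and any pair of libraries shared 15 to 33 barcodes, of which 0 were fibroblast barcodes.

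Leptomeningeal fibroblasts lay down the collagens and laminins of the pial surface, carry solute carriers that exchange metabolites, organic anions and GABA with the cerebrospinal fluid, and secrete signals such as retinoic acid, bone morphogenetic proteins and insulin-like growth factor to the tissue beneath. Decorin and lumican, made by Dcn and Lum, are small proteoglycans that bind collagen fibrils. Col1a2 encodes a chain of type I collagen, Slc6a13 a GABA and taurine transporter, and Slc47a1 an exporter of organic cations. Ranbp3l encodes a cofactor of nuclear export.

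The markers of the label stood above their levels in all other nuclei, though unevenly. Slc6a13, one of the rule's own genes, stood at 590 CPM (UMIs of a gene scaled to 1000000 UMIs over the nuclei summed) in fibroblast nuclei, against 1.51 CPM in endothelial nuclei, 11.4 CPM in mural nuclei and 2.02 CPM in all other nuclei. Slc47a1 was far lower, at 79.1 CPM against 2.13 CPM in all other nuclei, with 0 UMIs in sevoflurane replicate 2 and oxygen replicate 2. These levels describe the rule and carry no test. Outside the rule, the highest ratios to all other nuclei, computed with 10 CPM added to both levels, belonged to Slc6a20a, an imino acid transporter, at 1432 CPM against 9.99 CPM, and Bmp6, a bone morphogenetic protein, at 1340 CPM against 9.90 CPM. Slc7a11, the cystine transporter that feeds glutathione synthesis, followed at 1491 CPM against 16.04 CPM. Lama1, a laminin chain of the pial basement membrane, reached 652 CPM against 4.09 CPM, and Aldh1a2, which makes retinoic acid, 289 CPM against 1.21 CPM. Ptgds, the prostaglandin D synthase abundant in leptomeninges, stood at 7029 CPM against 201 CPM. Of the 6 rule genes, 138 nuclei held 3, 42 held 4 and 3 held 5. Barcodes just outside the rule, with 2 of the 6 genes, had 365 CPM of Slc6a20a and 317 CPM of Bmp6, against 1382 CPM and 1331 CPM in members with exactly 3. Slc47a1 went the other way, at 151 CPM just outside the rule against 92.2 CPM in members with exactly 3.

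**Figure D1:**
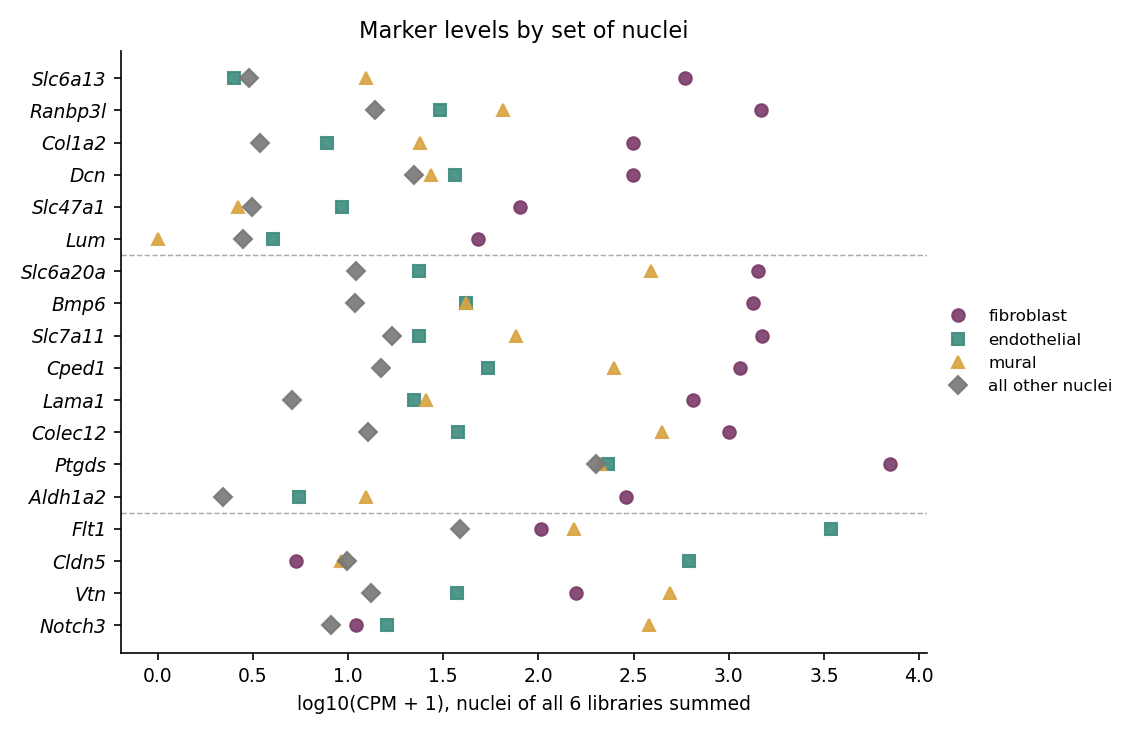
Levels on a log10(CPM + 1) scale of genes (rows) in fibroblast, endothelial, mural and all other nuclei, each summed over the 6 libraries. The first block holds the 6 rule genes, the second block genes outside the rule and the last block endothelial (Flt1, Cldn5) and mural (Vtn, Notch3) genes; in the first 2 blocks the fibroblast symbol lies farthest right in every row, and Slc6a20a stands at 1432 CPM in fibroblast nuclei.

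Fibroblast nuclei were sparse and unevenly spread over the libraries. There were 20, 4 and 47 in sevoflurane replicates 1 to 3 and 31, 35 and 46 in oxygen replicates 1 to 3. As shares of the nuclei of each library these were 0.200%, 0.0436% and 0.511% after sevoflurane and 0.390%, 0.387% and 0.581% under oxygen. The 95% Wilson interval of sevoflurane replicate 2 ran from 0.0170% to 0.112%, below the intervals of the other 5 libraries, of which the lowest bound was 0.129%. The mean share was 0.252 ± 0.238% after sevoflurane and 0.453 ± 0.111% under oxygen (SD, n = 3 each), a difference smaller than the spread (two-sided exact permutation test over 20 arrangements of the libraries, p = 0.3, smallest possible p 0.10). The groups overlapped, since sevoflurane replicate 3 lay above 2 of the oxygen libraries. Intervals cover counting error only, and in a dissected hippocampus the share also depends on how much of the meninges came with the tissue, which was not measured here.

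**Figure D2:**
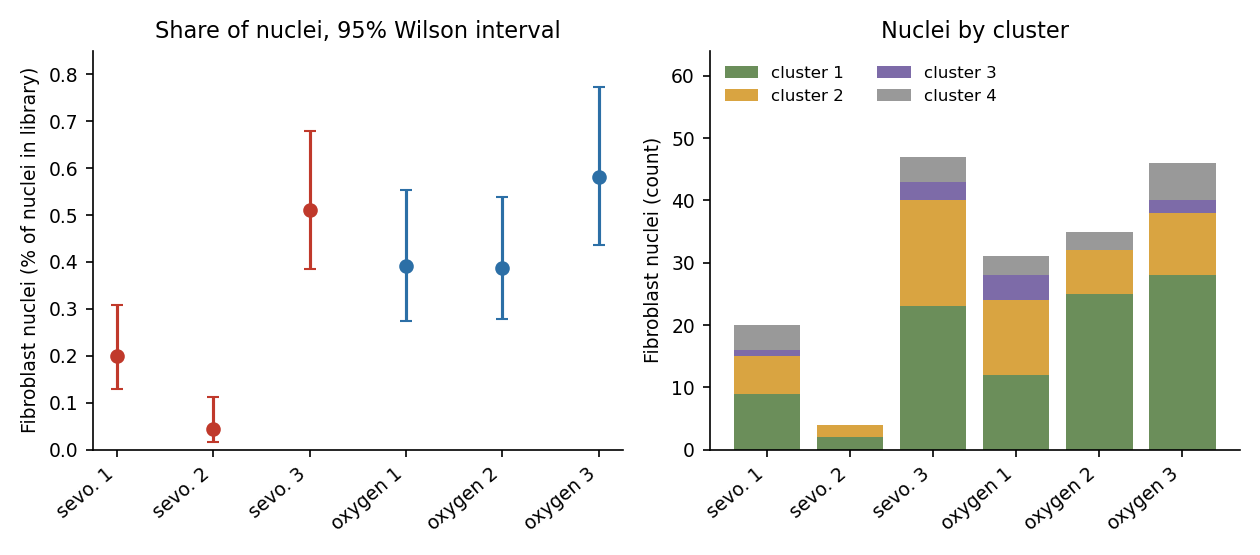
Left, percent of nuclei that met the fibroblast rule in each library with 95% Wilson intervals; right, the number of these nuclei in each of the 4 clusters described in the text. Sevoflurane replicate 2 gave 4 nuclei and every other library at least 20.

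Clustering of the 183 nuclei on their own gave 4 clusters, described here without a test because the clusters and their genes come from the same nuclei. Cluster 1 held 99 nuclei and was led by Cemip, a hyaluronan-degrading protein, at 1620 CPM against 116 CPM in the other fibroblast nuclei, followed by the collagen genes Col23a1 (1165 CPM against 222 CPM) and Col4a6 (854 CPM against 153 CPM). Lama1 (1142 CPM against 352 CPM) and Dcn (531 CPM against 178 CPM) were also higher there. Cluster 2 held 54 nuclei, with Nnat at 2881 CPM against 401 CPM. Slc6a20a (2596 CPM against 974 CPM) and Aldh1a2 (519 CPM against 199 CPM) were also higher in cluster 2. Lama1 (560 CPM against 688 CPM) and Slc47a1 (5.09 CPM against 108 CPM) were lower there. Cluster 3 held 10 nuclei, with high levels of some transporters, among them Slc4a10, a bicarbonate transporter, at 4269 CPM against 173 CPM, Slc47a1 at 998 CPM against 12.3 CPM and Slc26a7, an anion exchanger, at 701 CPM against 3.09 CPM. Its nuclei held 0 CPM of Lama1 and of Aldh1a2 and 21.2 CPM of Ranbp3l. The 4 dural fibroblast markers of the cell type lists were higher in cluster 3 than in the other fibroblast nuclei, Mgp at 743 CPM against 120 CPM, Fxyd5 at 361 CPM against 15.4 CPM, Foxc2 at 127 CPM against 18.5 CPM and Smoc2 at 84.95 CPM against 35.5 CPM. Of the 5 arachnoid barrier markers, Klf5 (170 CPM against 35.5 CPM), Cdh1 (63.7 CPM against 4.63 CPM) and Cldn11 (106 CPM against 78.7 CPM) were higher there too, whereas Dpp4 (0 CPM against 13.9 CPM) and Krt18 (0 CPM against 1.54 CPM) were not detected. The cluster is therefore given by its number.

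Cluster 4 held 20 nuclei with a median of 7478 UMIs, against medians of 2486 to 4050 UMIs in clusters 1 to 3. Its leading genes were Galntl6 (2662 CPM against 166 CPM), Tenm2 (4639 CPM against 452 CPM), Nrxn3 (3428 CPM against 367 CPM) and Opcml (2891 CPM against 365 CPM), the last 3 known as adhesion proteins of neurons. Its fibroblast genes were low, with Slc6a13 at 165 CPM against 747 CPM and Ranbp3l at 712 CPM against 1765 CPM. Sevoflurane replicates 1 to 3 supplied 4, 0 and 4 of its nuclei and oxygen replicates 1 to 3 supplied 3, 3 and 6. The doublet caller marked 7 of the 183 fibroblast nuclei.

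The treatment comparison asked what 6 h of sevoflurane changed in these nuclei. With the groups pooled, Pde7b and Neat1 stood at over 2 times their level in all other nuclei, and both rose. For Pde7b that pooled level holds the rise itself, at 787 CPM after sevoflurane and 208 CPM under oxygen. Cemip, the gene that leads cluster 1, fell. The other 30 genes that fell all stood at under 0.5 times their level in all other nuclei (10 CPM added to both levels). Among them were Ralyl, Grm7 and Grm5, all known from neurons. Counts were summed per library and tested by the edgeR quasi-likelihood test over 2845 genes. At an adjusted p under 0.05 (Benjamini-Hochberg), 33 genes were called (1.16% of those tested), of which 2 rose (0.0703%) and 31 fell (1.09%), while 306 had an unadjusted p under 0.05. Fewer nuclei of a kind and less RNA per nucleus cannot be told apart in such sums. The summed fibroblast counts were 69033, 12741 and 179989 UMIs after sevoflurane and 130213, 110203 and 193119 UMIs under oxygen, so 1 UMI in sevoflurane replicate 2 is worth 78.5 CPM and a count of 0 there allows up to 235 CPM (3 UMIs).

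Pde7b (ENSMUSG00000019990, mm10 chromosome 10, 20398004 to 20725078, minus strand) encodes a phosphodiesterase that hydrolyses cyclic AMP. Its level was 681, 549 and 844 CPM in sevoflurane replicates 1 to 3, against 346, 136 and 155 CPM in oxygen replicates 1 to 3. Every sevoflurane library lay above every oxygen library. Such a lack of overlap, in either direction, was found in 459 of the 2845 genes tested (16.1%). The log2 fold change was 1.73 (SE 0.35, edgeR adjusted p = 0.0158). Neat1 (ENSMUSG00000092274, mm10 chromosome 19, 5824708 to 5845478, minus strand) is the long noncoding RNA that scaffolds nuclear paraspeckles. It stood at 623, 235 and 889 CPM after sevoflurane, from 43, 3 and 160 UMIs, against 123, 236 and 192 CPM under oxygen, from 16, 26 and 37 UMIs. The groups touched, since the 3 UMIs of sevoflurane replicate 2 gave a value just under that of oxygen replicate 2. Its log2 fold change was 1.84 (SE 0.36, edgeR adjusted p = 0.0134).

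Both genes were higher after sevoflurane in each cluster when the libraries of a group were pooled, which carries no replicate check. Pde7b stood at 507 CPM after sevoflurane and 224 CPM under oxygen in cluster 1, at 1069 and 247 CPM in cluster 2, at 1909 and 505 CPM in cluster 3 and at 457 and 91.4 CPM in cluster 4, sevoflurane given before oxygen in each pair. Neat1 stood at 903 CPM after sevoflurane and 182 CPM under oxygen in cluster 1 and at 632 and 247 CPM, in the same order, in cluster 2. By library, Pde7b in cluster 1 had 855, 164 and 427 CPM after sevoflurane, against 496, 139 and 155 CPM under oxygen, which overlap. Neat1 in cluster 2 also overlapped, at 816, 0 and 652 CPM against 111, 352 and 333 CPM. Pde7b in cluster 2 and Neat1 in cluster 1 did not overlap. Without the 20 nuclei of cluster 4, these were the 2 genes called of 2136 tested (0.0936%), Pde7b with a log2 fold change of 1.67 (SE 0.32) and Neat1 with 1.74 (SE 0.33), both at an edgeR adjusted p of 0.0061. With all nuclei, both calls rest on sevoflurane replicate 3, with which 47 of the 71 sevoflurane nuclei came. Without that library 0 genes were called by edgeR, 408 having an unadjusted p under 0.05, and Pde7b had a log2 fold change of 1.53 (adjusted p = 0.116) and Neat1 of 1.43 (adjusted p = 0.127). Pde7b with all nuclei also lost its call without sevoflurane replicate 1 (edgeR adjusted p = 0.0599) or oxygen replicate 3 (0.104), and Neat1 without oxygen replicate 1 (0.0538). With cluster 4 and sevoflurane replicate 3 both left out, Pde7b had a log2 fold change of 1.51 (edgeR adjusted p = 0.302) and Neat1 of 1.05 (0.481). Without cluster 4, both kept their calls without sevoflurane replicate 1 or 2. Pde7b then lost its call without oxygen replicate 2 (0.0801) or 3 (0.103), and Neat1 without oxygen replicate 1 (0.114) or 3 (0.0591).

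Cemip (ENSMUSG00000052353, mm10 chromosome 7, 83932857 to 84086502, minus strand) stood at 232, 78.5 and 350 CPM in sevoflurane replicates 1 to 3, against 929, 1579 and 528 CPM in oxygen replicates 1 to 3. The groups did not overlap. The value of sevoflurane replicate 2 came from 1 UMI. The log2 fold change was -1.90 (SE 0.41, edgeR adjusted p = 0.0215). Cemip is the leading gene of cluster 1, which held 34 of 71 sevoflurane nuclei and 65 of 112 oxygen nuclei. Within cluster 1 its level was 315, 164 and 783 CPM in sevoflurane replicates 1 to 3, against 3060, 2995 and 1127 CPM in oxygen replicates 1 to 3. In cluster 2 it stood at 68.98 CPM after sevoflurane, from 6 UMIs, and 73.05 CPM under oxygen, from 8 UMIs. Without cluster 4 the log2 fold change of Cemip was -2.08 (SE 0.41, edgeR adjusted p = 0.0726). Among the 544 genes at over 2 times the level of all other nuclei, groups pooled, Cemip fell, while Pde7b and Neat1 rose, 3 calls in all (0.551%). That set was drawn from these same nuclei, and the pooled level of Pde7b holds its rise. With all nuclei Cemip lost its call without sevoflurane replicate 1, 2 or 3 (edgeR adjusted p = 0.181, 0.111 and 0.0914) or oxygen replicate 2 (0.0533), at log2 fold changes of -2.38 to -1.46.

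**Figure D3:**
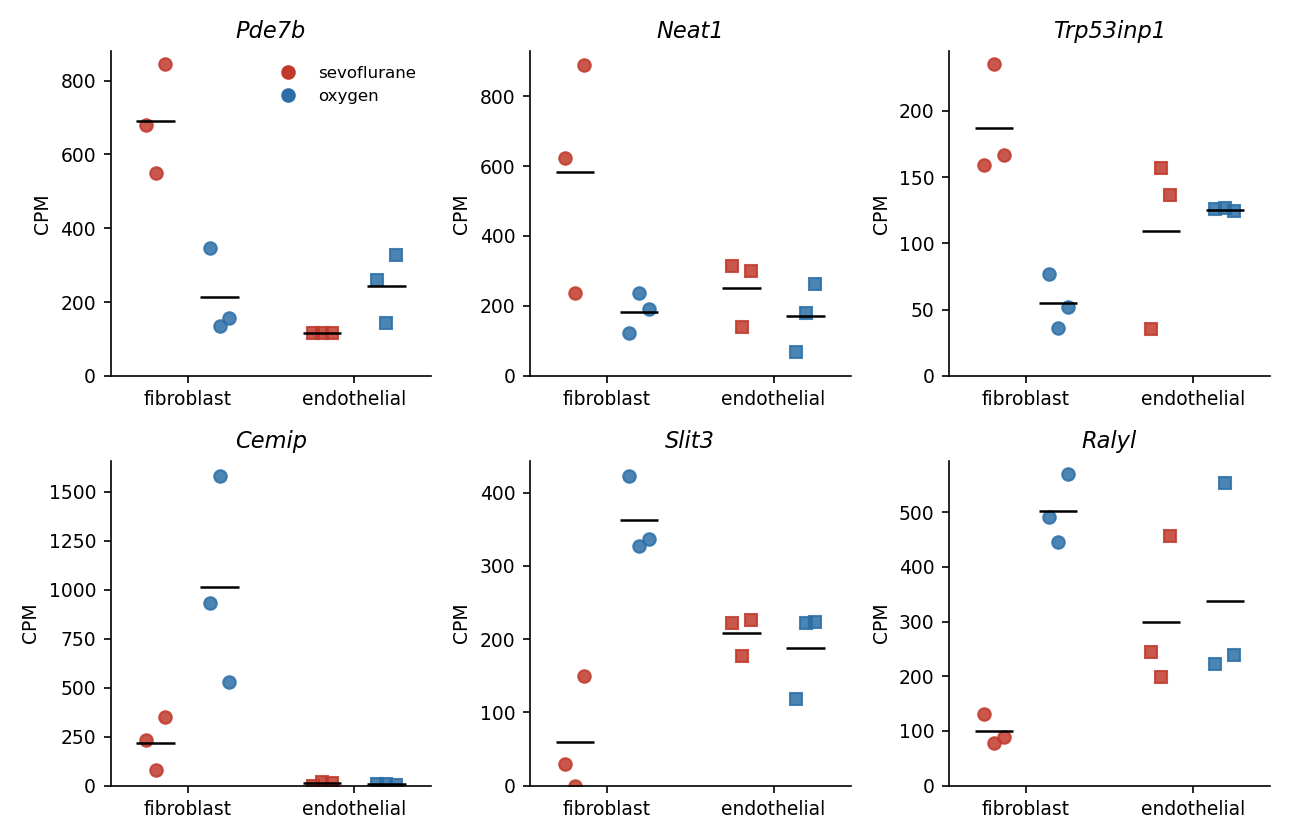
CPM of 6 genes per library (points) with the group mean (line), in fibroblast nuclei (circles) and endothelial nuclei (squares), sevoflurane left of oxygen in each pair. Pde7b lay between 549 and 844 CPM in the 3 sevoflurane libraries of fibroblast nuclei, above all 3 oxygen libraries, and Cemip lay below them.

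**Figure D4:**
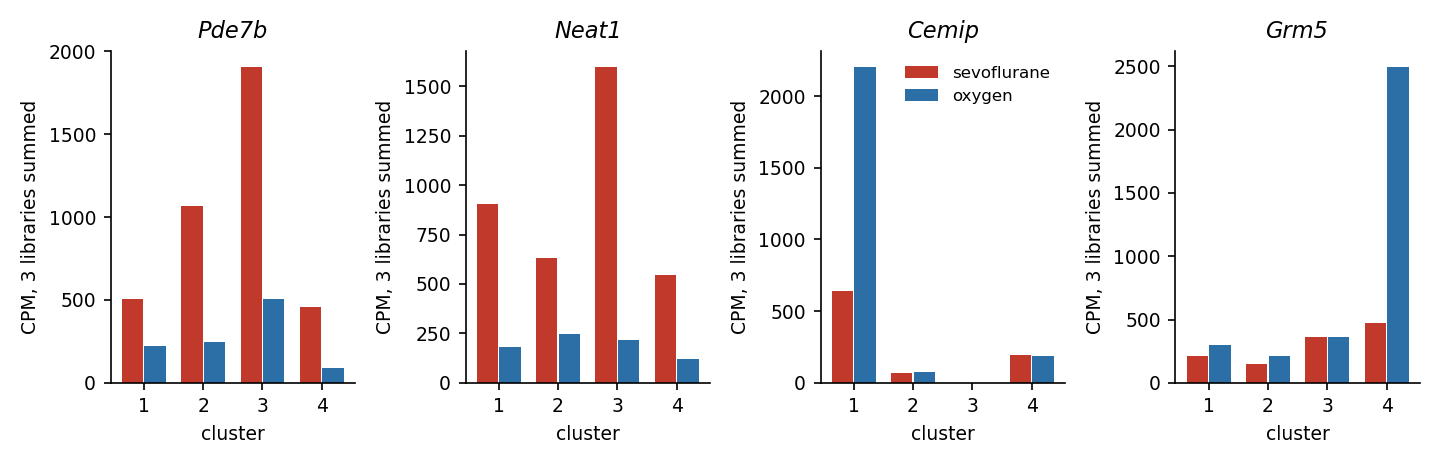
CPM of 4 genes by fibroblast cluster, the 3 libraries of each group summed, with no error because libraries are pooled. Pde7b and Neat1 were higher after sevoflurane in each of the 4 clusters, the Cemip difference lay in cluster 1 and the Grm5 difference was widest in cluster 4.

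Pde7b and Cemip are the called genes at over 2 times the level of all other nuclei, groups pooled, with a promoter in the RefSeq table (GRCm38.p6, 250 bases before to 50 after the start). The sequences before their starts are shown. Both are written in the direction of transcription. They lie at chr10:20548279-20548578 for Pde7b, a start inside the annotated gene span, and at chr7:84086456-84086755 for Cemip. Capitals mark matches on either strand to 3 motifs, none of which overlap here. The first was TGACG, the core of the cyclic AMP response element. The second was TATAAA, the core promoter element bound by the TATA-binding protein. The third was GGGCGG, the element bound by Sp1 and its relatives.
Pde7b: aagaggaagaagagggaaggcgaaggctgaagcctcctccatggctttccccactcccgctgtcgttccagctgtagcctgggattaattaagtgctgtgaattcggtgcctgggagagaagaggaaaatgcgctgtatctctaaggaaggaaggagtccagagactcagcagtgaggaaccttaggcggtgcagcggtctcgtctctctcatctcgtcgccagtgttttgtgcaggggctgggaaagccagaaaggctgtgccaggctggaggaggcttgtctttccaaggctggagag
Cemip: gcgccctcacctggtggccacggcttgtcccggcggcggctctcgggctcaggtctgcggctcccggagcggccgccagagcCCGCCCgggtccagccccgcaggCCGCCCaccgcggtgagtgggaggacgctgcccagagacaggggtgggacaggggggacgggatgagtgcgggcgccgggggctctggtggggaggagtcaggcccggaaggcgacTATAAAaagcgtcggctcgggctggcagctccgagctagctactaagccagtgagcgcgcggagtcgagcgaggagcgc
The Pde7b window held 0 matches to the 3 motifs. The Cemip window held 1 match to the second motif and 2 to the third. Among 32851 promoters of this length in the table, 20.8% held the first, 13.6% the second and 35.7% the third.

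A further 6 genes made up the 8 with the smallest p among those higher after sevoflurane, and they did not pass the test. Trp53inp1, a stress-induced p53 target that promotes autophagy, was closest. It stood at 159, 235 and 167 CPM after sevoflurane, against 76.8, 36.3 and 51.8 CPM under oxygen, with no overlap and a log2 fold change of 1.56 (SE 0.40, edgeR adjusted p = 0.0567). Errfi1, a feedback inhibitor of the EGF receptor, averaged 472 ± 158 CPM after sevoflurane and 185 ± 21.9 CPM under oxygen (SD, n = 3 each), with a log2 fold change of 1.11 (edgeR adjusted p = 0.137). Mertk, a receptor kinase for dying-cell ligands, had 203, 628 and 222 CPM after sevoflurane, against 107, 72.6 and 124 CPM under oxygen (log2 fold change 1.24, edgeR adjusted p = 0.149). Cfl1, Orc3 and Rpl21 had log2 fold changes of 1.34, 1.22 and 1.496 (edgeR adjusted p = 0.154, 0.159 and 0.123). Without cluster 4 Mertk had a log2 fold change of 0.39, and Trp53inp1 one of 1.51 (edgeR adjusted p = 0.204).

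Ralyl, an RNA-binding protein of neurons, had the smallest p of all genes. Its level was 130, 78.5 and 88.9 CPM after sevoflurane, against 492, 445 and 570 CPM under oxygen, a log2 fold change of -2.33 (SE 0.37, edgeR adjusted p = 0.00467). The groups were far apart, yet even the oxygen values lay below the level of Ralyl in all other nuclei, which averaged 1155 ± 33.3 CPM after sevoflurane and 1340 ± 66.7 CPM under oxygen (SD, n = 3 each). Grm7 and Grm5, metabotropic glutamate receptors, fell by 2.20 and 1.95 on the log2 scale (edgeR adjusted p = 0.00777 and 0.0108). Further falls included Hs3st4, a heparan sulfate sulfotransferase (-2.54), Nkain3 (-2.35), Ryr3, an intracellular calcium channel (-2.29), Epha6, an ephrin receptor (-2.11), Arpp21 (-2.06), Specc1 (-2.03), Lrrc7, a postsynaptic scaffold (-1.995), Dcc, the netrin receptor (-1.95), and Dok6 (-1.95).

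Apart from that of Cemip, the falls were smaller without cluster 4 wherever the gene could still be tested. Grm5 in cluster 4 stood at 475 CPM in 8 sevoflurane nuclei and 2498 CPM in 12 oxygen nuclei, against 213 and 297 CPM, in that order, in cluster 1. Without cluster 4, 16 of the 31 genes still passed the filter on low counts, all 16 kept a fold change below 0, and their median log2 fold change was -0.34, against -1.85 for the 31 with all nuclei. Of the 31, 0 were called without cluster 4. Genes at under 0.5 times their level in all other nuclei (875 genes) gave 7.08%, 5.36% and 7.89% of the fibroblast UMIs after sevoflurane, against 12.3%, 11.4% and 14.9% under oxygen (two-sided exact permutation test, p = 0.1, the smallest possible). Without cluster 4 these shares were 5.17%, 5.36% and 5.69% after sevoflurane and 6.60%, 6.28% and 5.56% under oxygen (exact permutation p = 0.2), groups that overlap. The 875 genes were picked by their level in these same fibroblast nuclei, cluster 4 and both groups pooled, so the list is not independent of the shares. The 6 excitatory neuron markers of the cell type lists (Slc17a7 among them) did not follow: their summed level was 971 to 1805 CPM after sevoflurane and 799 to 960 CPM under oxygen. What part transcripts of neurons have in the falls was not tested beyond these values.

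**Figure D5:**
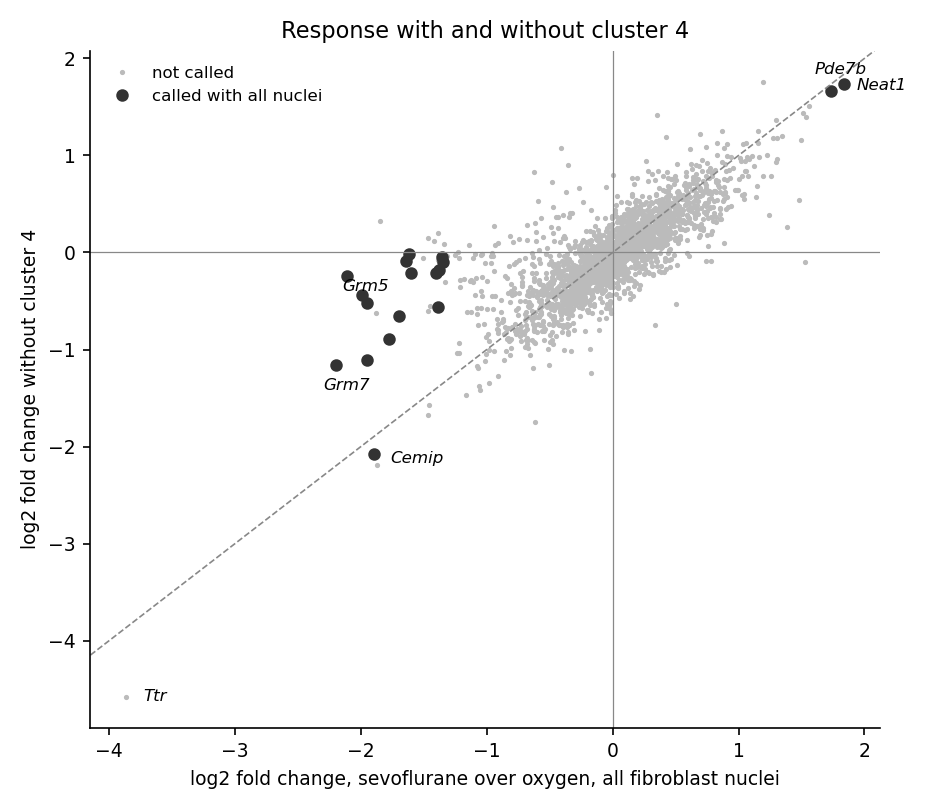
Log2 fold change, sevoflurane over oxygen, of the 2116 genes tested both with all fibroblast nuclei (horizontal) and without cluster 4 (vertical); large points are the 18 of them called with all nuclei, and the dashed line marks equal values. Pde7b, Neat1 and Cemip lie close to the line, whereas the other called genes lie nearer to 0 without cluster 4.

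Over all genes tested 1.16% were called. The 17 gene lists together held 110 tested genes with 1 call, which is near that share. The only called member was Slit3, a guidance ligand for Robo receptors. It had 29.0, 0 and 150 CPM after sevoflurane, against 422, 327 and 337 CPM under oxygen (log2 fold change -1.90, edgeR adjusted p = 0.0252). Of its 156 oxygen UMIs, 114 lay in cluster 4, where it stood at 141 CPM after sevoflurane and 868 CPM under oxygen, and without cluster 4 it did not pass the filter on low counts. The other secreted signals named did not pass the test. Igf2, insulin-like growth factor 2, averaged 180 ± 20.1 CPM after sevoflurane and 105 ± 12.9 CPM under oxygen (SD, n = 3 each; log2 fold change 0.82, edgeR adjusted p = 0.368). Apod, a lipid carrier, averaged 1151 ± 235 CPM after sevoflurane and 757 ± 138 CPM under oxygen (SD, n = 3 each; log2 fold change 0.59, edgeR adjusted p = 0.467). Slit2, the other Slit ligand measured, averaged 78.2 ± 69.6 CPM after sevoflurane and 252 ± 193 CPM under oxygen (SD, n = 3 each; log2 fold change -1.16, edgeR adjusted p = 0.534).

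The genes of the fibroblasts' own work did not pass the test. Since 1.16% of all genes tested were called, 0 calls in lists this short do not set them apart. Of 51 genes of interstitial matrix, 31 stood at over 2 times their level in other nuclei and 11 were tested, with 8 fold changes above 0, 0 calls and a median log2 fold change of 0.46, beside 0.01 over all genes tested. Among these, Col23a1 averaged 1021 ± 614 CPM after sevoflurane and 415 ± 83.3 CPM under oxygen (SD, n = 3 each; edgeR adjusted p = 0.191), and Fbn1, fibrillin of elastic fibres, 205 ± 92.1 CPM after sevoflurane and 91.4 ± 51.5 CPM under oxygen (SD, n = 3 each; edgeR adjusted p = 0.207). Of 30 basement membrane genes 11 were tested (median 0.16, 0 calls), of 42 leptomeningeal transporters 21 (median 0.16, 0 calls) and of 21 retinoic acid genes 5 (median 0.63, 0 calls). The tested matrix genes include Col1a2 and Dcn, and the tested transporters Slc6a13, all of them genes of the rule. The counts and medians of the matrix and transporter lists are therefore not independent of the rule. Glucocorticoid-responsive genes had 11 of 32 tested, 7 above 0, with a median of 0.19 and 0 calls, and 4 of them had an unadjusted p under 0.05. The circadian list had 6 of 20 tested (median 0.15) and the hypoxia and glycolysis list 5 of 28 (median -0.20), both with 0 calls. Without cluster 4, over the members that passed the filter on low counts there, the median was 0.43 for interstitial matrix, -0.028 for basement membrane, 0.077 for transporters, 0.14 for retinoic acid genes and -0.00056 for glucocorticoid-responsive genes, beside -0.0028 over all genes tested. It was 0.10 for the circadian list and -0.33 for the hypoxia and glycolysis list. Of the cholesterol synthesis, interferon-stimulated and fibroblast activation lists 0 members reached the filter on low counts.

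Level changes of the rule's own genes are given without a test, since the rule required them. Slc6a13 had 536, 1020 and 806 CPM after sevoflurane, against 453, 699 and 409 CPM under oxygen. Col1a2 had 391, 392.4 and 389 CPM after sevoflurane, against 284, 318 and 233 CPM under oxygen. Ranbp3l averaged 2024 ± 1105 CPM after sevoflurane and 1533 ± 410 CPM under oxygen, and Dcn 369 ± 88.5 CPM after sevoflurane and 320 ± 80.0 CPM under oxygen (SD, n = 3 each). Slc47a1 gave 3, 0 and 15 UMIs after sevoflurane and 22, 0 and 15 UMIs under oxygen, and Lum 3, 0 and 3 UMIs after sevoflurane and 6, 10 and 11 UMIs under oxygen.

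The summed levels of arachnoid barrier markers and of choroid plexus markers also differed between the groups. The summed level of the 5 arachnoid barrier markers in fibroblast nuclei was 275, 392.4 and 156 CPM in sevoflurane replicates 1 to 3, against 138, 63.5 and 135 CPM in oxygen replicates 1 to 3, with no overlap. Of these sums Cldn11 alone gave 188, 314 and 77.8 CPM after sevoflurane, against 69.1, 18.2 and 72.5 CPM under oxygen. Its 314 CPM in sevoflurane replicate 2 came from 4 UMIs. Without cluster 4 the groups overlapped, at 146 to 392.4 CPM after sevoflurane and 84.0 to 180 CPM under oxygen. The part of any 1 cell type in these sums or in the other results was not tested. The summed level of 9 choroid plexus markers, Ttr among them, was 106 to 188 CPM in fibroblast nuclei after sevoflurane and 263 to 1657 CPM under oxygen, and in endothelial nuclei 35.0 to 57.7 CPM after sevoflurane and 94.9 to 1093 CPM under oxygen. Ttr, the carrier of thyroxine, had 86.9, 0 and 16.7 CPM in fibroblast nuclei after sevoflurane, against 215, 136 and 1186 CPM under oxygen (log2 fold change -3.86, edgeR adjusted p = 0.383). It was named after its values were seen. Of the fibroblast nuclei, 8 held 3 or more detected choroid plexus or ependymal markers, and all 8 came from oxygen replicate 3. Without them 1 gene was called, Cemip (log2 fold change -2.03, edgeR adjusted p = 0.0250), while Neat1 (1.79, adjusted p = 0.0586) and Pde7b (1.59, adjusted p = 0.0776) kept their size and lost the call.

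The same libraries held 396 endothelial nuclei. In these Pde7b stood at 117, 115 and 115 CPM after sevoflurane, against 259, 142 and 328 CPM under oxygen (log2 fold change -1.09, SE 0.29, edgeR adjusted p = 0.0953), the opposite direction to fibroblast nuclei. The difference of the 2 responses, tested by limma within libraries, was 2.57 on the log2 scale (SE 0.47, adjusted p = 0.458), and 0 of 2509 genes were called (0%), with 227 at an unadjusted p under 0.05. An edgeR interaction term with library as a block, the alternative test, called 27 genes, 5 higher and 22 lower in fibroblasts, with Pde7b at 2.87 (adjusted p = 0.0023). Neat1 averaged 251 ± 96.1 CPM after sevoflurane and 170 ± 97.8 CPM under oxygen in endothelial nuclei (SD, n = 3 each), and its difference between the responses was 0.71 (limma adjusted p = 0.633). Of the 31 genes that fell in fibroblast nuclei, 30 were tested in endothelial nuclei, 14 with a fold change below 0, and their median there was 0.05.

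In 178 mural nuclei (pericytes and smooth muscle), too few in 3 of the libraries for a test, Pde7b averaged 350 ± 117 CPM after sevoflurane and 396 ± 213 CPM under oxygen, and Neat1 120 ± 60.7 CPM after sevoflurane and 119 ± 108 CPM under oxygen (SD, n = 3 each). In all other nuclei of the series Pde7b averaged 126 ± 8.55 CPM after sevoflurane and 153 ± 8.32 CPM under oxygen, and Neat1 51.9 ± 36.3 CPM after sevoflurane and 30.6 ± 16.2 CPM under oxygen (SD, n = 3 each).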

How the data were processed

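The deposited matrices hold raw counts, UMIs per gene and barcode for 32285 genes. Per the submitters' processing notes the reads were handled with Cell Ranger 7.1.0 and fastp, and mm10 is the genome build named, and per the labels' protocols the libraries were droplet-based 3' libraries of nuclei from frozen tissue. The treatment of intronic reads is not given in the sources used here. As deposited, the matrices held 53824 barcodes, of which 53294 passed the filters.

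Counts of the fibroblast nuclei were summed per library and tested with edgeR 4.0.16 in R 4.3.3 (filterByExpr, TMM, robust quasi-likelihood fit, treatment as the only term, Benjamini-Hochberg over all genes tested, called under 0.05). The SE was obtained from the F statistic, as the size of the log2 fold change over the root of F. CPM values use all UMIs of the summed nuclei without TMM factors, which lay between 0.954 and 1.13, so a fold change can differ from the ratio of mean CPM. Responses were compared by limma 3.58.1 on within-library differences of log2 CPM (prior count 2). DESeq2 1.42.0 was an alternative. Fibroblast nuclei were clustered by the Leiden method (scanpy 1.11.5, resolution 0.4, 1000 genes, 10 components). Doublets were scored per library with Scrublet at a common threshold of 0.317 and left in, except in an alternative. Endothelial nuclei had 3 or more of the 6 endothelial genes, and mural nuclei 3 or more of 8 mural genes. Gene positions are from GENCODE M21, which 32235 genes matched by ID. On simulated counts the edgeR steps recovered 162 of 165 changed genes tested, with 10 false calls. The planted log2 changes were 2 or 3 in size, with 1 common dispersion for all genes. Smaller changes were not simulated, so this recovery does not speak to them or to the lists with 0 calls.

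Genes were named by a rule: among called genes with at least 20 CPM in a group and no overlap of the groups, up to 15 rises and 15 falls of the greatest fold, the 8 smallest p in a direction with under 8 calls, up to 4 members of each list with a called member, and the rule genes. Of the 33 called genes, 3 with only a predicted-gene name were counted and not named. A further gene that met the rule is not reported here. Pde7b met the overlap condition, and Neat1 was named by its p. The members, gene lists and tests were chosen with earlier results of these data known.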

Additional observations from a re-analysis of the deposited data

Results flagged for a closer look

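For 8 named genes the fibroblast response differed from the endothelial response by the edgeR interaction test with library as a block, at an adjusted p under 0.05. These values are fibroblast minus endothelial differences of log2 fold changes, sevoflurane over oxygen. The difference was 2.87 for Pde7b (adjusted p = 0.0023) and 1.78 for Mertk (adjusted p = 0.0437). It was -2.85 for Nkain3 (adjusted p = 0.0218), -2.66 for Dcc (0.0094), -2.48 for Grm7 (0.0094), -2.45 for Ralyl, -2.06 for Grm5 and -1.87 for Lrrc7 (0.0330 each). The limma test of the same differences called 0 of these 8, with an adjusted p of 0.458 for Pde7b and 0.472 for Ralyl. The edgeR interaction was not run without cluster 4, so the part of cluster 4 in these 8 calls was not tested. Without cluster 4 the fibroblast log2 fold change was 1.67 for Pde7b, 0.39 for Mertk and -1.11 for Dcc. It was -1.16 for Grm7, -0.52 for Grm5 and -0.43 for Lrrc7, while Nkain3 and Ralyl did not pass the filter on low counts.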

How the results depend on the processing

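The 33 calls of the fibroblast response depended on the processing. Size factors other than TMM gave 31 calls and the stricter filter on nuclei 37, whereas no filter on low counts gave 53, DESeq2 20, doublets left out 9, gene span offsets 6, thinning to 5000 UMIs 5 and leaving out choroid plexus and ependymal nuclei 1. With at least 4 rule genes edgeR called 0 of 452 genes, 55 having an unadjusted p under 0.05. Leaving out a library gave 0 to 44 calls: 12 without sevoflurane replicate 1, 14 without replicate 2, 0 without replicate 3, and 29, 44 and 10 without oxygen replicates 1 to 3. Alternatives added after seeing the data gave 2 calls without cluster 4 (0 to 4 with a library also left out) and 3 among fibroblast-enriched genes. The single called list member (Slit3 with all nuclei) was matched by 1 call with the block, RLE, DESeq2 or no filter, by 2 under the stricter filter, and by 0 with gene span offsets, 4 rule genes, doublets, choroid plexus nuclei or cluster 4 left out, thinning or enriched genes, and by 0 to 1 with a library left out. The difference from the endothelial response went from 0 calls by limma to 27 by the edgeR interaction, and leaving out a library gave 0 to 1. Mertk reversed, at -0.043, without cluster 4 and sevoflurane replicate 2, the only 1 of 561 values of 26 named genes to do so, and over the fits that left out a library it ran from that value to 1.45. The cause of these changes was not tested.

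The deviations of same-numbered libraries of the 2 groups from their group means correlated at r = -0.0149, 0.113 and 0.0796 over 2845 genes. Differently numbered libraries gave r from -0.126 to 0.118. Whether the numbers pair the libraries cannot be told from these values. With the replicate number as a block 57 genes were called, 2 higher and 55 lower, and with gene span offsets as well 22. The share of nuclei (difference -0.201 percentage points) and the UMIs from genes low in fibroblast nuclei (-6.08 percentage points) kept their direction in each alternative run, the share at -0.331 to -0.0392 points. The alternatives of the mural comparison were not run, because 3 libraries held under 20 mural nuclei. The 12741 UMIs of sevoflurane replicate 2 limit what low genes can show.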

Other observations

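Over the deposited nuclei, Xist stood at 1369 CPM in sevoflurane replicate 1, labelled male, and at 0.519 to 1.199 CPM in the other 5 libraries, including both labelled female, while the summed level of 4 Y-linked genes was 0.349 CPM in sevoflurane replicate 1 and 341 to 374 CPM in the others. The labelled sex was therefore not used.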
